A study of Mus musculus with 4 samples.

Results

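The genes described here encode amino acid transporters of 7 solute carrier families, SLC1, SLC3, SLC6, SLC7, SLC36, SLC38 and SLC43. Members were taken by gene name, with the glial-type glutamate transporter Slc1a2 left out, and a gene was read at the probe set with the strongest mean signal. This gave 57 genes of 19504 named genes on the arrays, read by 102 probe sets in all. The rule reads names and signal, but it was set with results of these arrays known, and Slc1a2, which it drops, passed both thresholds (change 0.78, limma adjusted p = 0.00194). They were measured in whole liver of male mice aged 6 weeks, either WT of strain C57Bl/6 or Tm7sf2-KO backcrossed to C57/B6, with 2 arrays per genotype. Tm7sf2 encodes an enzyme of sterol reduction that sits in the endoplasmic reticulum and inner nuclear membrane. The comparison asks which transcripts differ in liver when the protein is missing. The sources used here name no cell type or promoter that limits the knockout to part of the liver. The labels speak of duplicate hybridization and name no animals, so p-values rest on array-to-array spread alone, and that spread may be technical.

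Amino acids reach the liver in portal blood and enter hepatocytes through carriers of the sinusoidal membrane. System A carriers take up small neutral amino acids together with sodium, system N carriers move glutamine and histidine in either direction, and cationic carriers bring in arginine, lysine and ornithine. Other members work as pairs of a heavy and a light subunit, export amino acids from lysosomes, or carry related solutes such as taurine, betaine and creatine.

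Expression is given throughout as a log2 value, and a change is KO minus WT on the log2 scale with its standard error (SE) from limma. Genes past both thresholds met a false discovery rate (FDR) of 5%, that is, an adjusted p below 0.05, and differed by at least 0.5, which is 1.41-fold. Tm7sf2 itself read 10.25 and 10.27 in WT replicates 1 and 2 and 7.47 and 7.55 in the KO replicates, a change of -2.75 (SE 0.08, adjusted p = 1.65e-06). Its other probe set read 7.46 to 7.54 on all arrays (change 0.04, adjusted p = 0.878), and the sources used here do not place either one against the disruption. Arrays of 1 genotype correlated at 0.994 and arrays of different genotypes at 0.99 to 0.991 across probe sets. Added control transcripts (45 probe sets) averaged 8.53 and 8.58 in WT and 8.93 and 8.91 in KO, a difference of 0.36. All changes below are therefore relative to the bulk of genes, and setting the control transcripts equal would lower each of them by 0.36.

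Markers of liver cells were in place. All 6 hepatocyte markers lay above the silent level, and their mean was 13.93 to 13.96 in WT and 13.97 to 14.01 in KO. The silent level, 6.74, is the 95th percentile of 88 probe sets of olfactory, vomeronasal and bitter taste receptor genes. None of the 6 Kupffer cell, 5 endothelial and 5 stellate markers passed 5% FDR in limma, and the 4 kidney markers were at the silent level. None of the biliary, lymphoid, erythroid and acinar pancreas markers measured passed 5% FDR, and the biliary Krt7 and Epcam and the lymphoid Cd79a were at the silent level. Among hepatocyte zone markers, 1 of 6 periportal genes passed 5% FDR, the histidine ammonia lyase Hal (change 0.47, adjusted p = 0.0259), and none of 6 pericentral genes did. The periportal genes ran from -0.31 to 0.47 with a median of -0.03, and the pericentral genes from -0.17 to 0.26 with a median of 0.08. The 2 neutrophil markers measured were lower in KO on every array, with a list mean of 7.34 and 7.31 in WT and 6.82 and 6.87 in KO, and S100a8 passed both thresholds (change -0.67, adjusted p = 0.00449). Their part in the transporter values was not tested.

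No amino acid transporter passed both thresholds between Tm7sf2-KO and WT liver. Of all named genes 0.543% were higher and 0.487% lower past both thresholds. By limma 1 transporter passed 5% FDR alone, the cationic carrier Slc7a2, which is 1.75% of the members, against a background of 1.75% of all genes. An unadjusted p under 0.05 was reached by 8 transporters, 4 higher and 4 lower in KO, or 14% of them, where the share over all genes was 15.2%. The arrays of the genotypes did not overlap for 25 transporters, and the background share was 43.9%, the same percentage as among the members. Each of these shares was close to its background.

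Changes of the transporters lay on both sides of 0. In KO 30 read higher and 27 lower, with a median change of 0.01, quartiles of -0.08 and 0.08 and a range of -0.40 to 0.40. The median over all genes was also 0.01. The median size of the change without its sign was 0.0772 among transporters and 0.0831 over all genes. SEs ran from 0.08 to 0.12, with a median 95% confidence interval (CI) of 0.19 to either side. This narrow range partly reflects limma, which draws each gene's variance toward a value shared over all probe sets. The arrays themselves varied more unevenly, with standard deviations (SD) in KO of 0.30 for Slc6a11 (SE 0.12) and 0.02 for Slc7a2 (SE 0.08). For 52 transporters (91.2%) the whole interval lay within 0.5 of no change, against 94.5% of all genes. The remaining 5, whose intervals reached past 0.5, were Slc7a2, Slc6a12, Slc1a4, Slc36a1 and Slc6a8.

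Many of these genes had weak signal in liver. Above the silent level stood 32 transporters, and 25 did not. All 8 with an unadjusted p under 0.05 were among the 32, a share of 25%, where 21% of the genes above that level reached it. The share past 5% FDR there was 3.12% (1 gene), and 2.8% of all genes above the level passed. The 25 transporters at the silent level ranged from -0.20 to 0.13, and none reached an unadjusted p under 0.05 in limma. For these no difference between genotypes was detected by these probe sets, and weak signal may hide one.

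**Figure D1:**
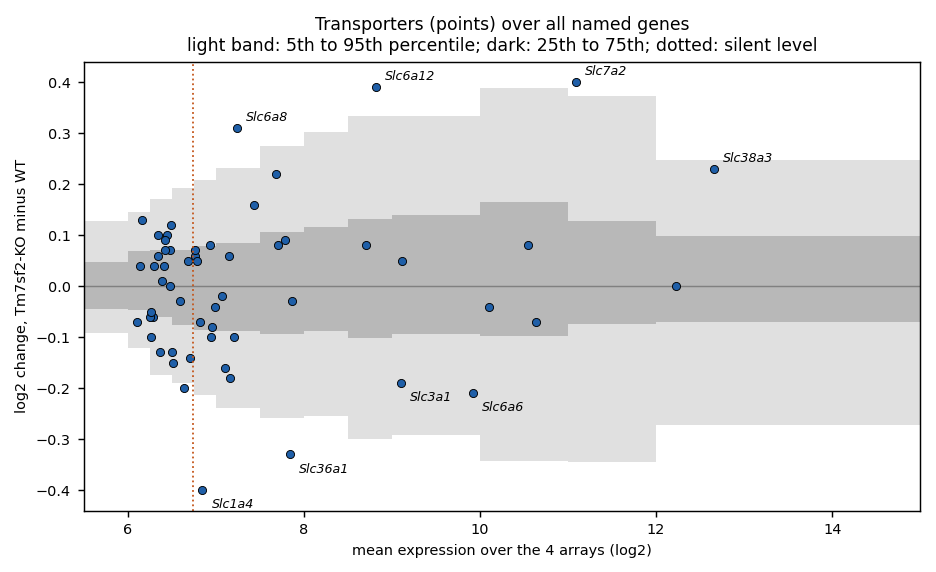
Change (KO minus WT, log2, relative to the bulk of genes) against mean expression over the 4 arrays (log2) for the 57 transporters, shown as points. The light and dark bands hold the 5th to 95th and the 25th to 75th percentiles of all named genes in bins of signal, the dotted line is the silent level of 6.74, and the 8 labelled transporters have an unadjusted p under 0.05. Slc7a2 at 0.40 and Slc1a4 at -0.40 are the ends of the range.

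Cationic amino acid carriers held the transporter past 5% FDR. Slc7a2 (chromosome 8) encodes CAT2, which carries arginine, lysine and ornithine across the plasma membrane and has a low-affinity form that is typical of liver. It read 10.90 and 10.89 in WT replicates 1 and 2 and 11.31 and 11.28 in KO replicates 1 and 2. Both KO arrays stood above both WT arrays, and replicates of a genotype lay closer together than the genotypes. The means were 10.89 ± 0.01 in WT and 11.29 ± 0.02 in KO (SD, n = 2 arrays each), a change of 0.40 (SE 0.08, 95% CI 0.23 to 0.57, limma adjusted p = 0.0438), or 1.32-fold. This lay under the fold threshold. In bulk liver, a change in the number of cells of a type and a change in RNA per cell cannot be told apart. The same limit holds for each gene that follows.

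The call on Slc7a2 came from its probe set with the strongest signal and not from the others. A second read 7.95 and 8.22 in WT and 8.14 and 8.15 in KO, a change of 0.06 (limma adjusted p = 0.868). The third gave -0.07 (adjusted p = 0.821) and the fourth 0.04 (adjusted p = 0.914), and on all 3 the arrays of the genotypes overlapped. Which transcript forms of Slc7a2 each probe set reads was not examined here. With the mean of its 4 probe sets the change was 0.11 (adjusted p = 0.518). Slc7a2 stayed past 5% FDR with a variance trend (limma adjusted p = 0.00767), without dim probe sets (0.0244) and with a robust variance prior (0.0299). After a repeated quantile normalization its change was 0.37 (adjusted p = 0.0513), and centred on the control transcripts it was 0.04 (adjusted p = 0.682). With 1 array left out it was 0.39 to 0.42, and limma then called no transporter and not Tm7sf2 either.

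The other cationic carriers did not pass a threshold. Slc7a4, a relative of the CAT carriers whose transport activity is uncertain, read 7.56 and 7.59 in WT and 7.66 and 7.92 in KO (change 0.22, 95% CI 0.00 to 0.44, adjusted p = 0.384). Slc7a1, which encodes the widely expressed CAT1, gave 0.07 (adjusted p = 0.818), and its weaker probe sets gave -0.16 (adjusted p = 0.459) and -0.09 (adjusted p = 0.727). Slc7a3 and Slc7a14 were at the silent level with changes of 0.06 and -0.06.

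The sodium- and chloride-dependent carriers of GABA, betaine, taurine and creatine held 3 of the 8 transporters with an unadjusted p under 0.05, and none of the 6 passed 5% FDR in limma. The 3 are 50% of this group, beside 15.2% of all genes and 21% of those above the silent level. Slc6a12 (chromosome 6) encodes BGT1, which carries the osmolyte and methyl donor betaine as well as GABA. Its levels were 8.64 and 8.62 in WT and 9.05 and 8.98 in KO, so the KO arrays stood above the WT arrays. The means were 8.63 ± 0.01 and 9.02 ± 0.05 (SD, n = 2 each), a change of 0.39 (SE 0.08, 95% CI 0.21 to 0.56) and a limma adjusted p of 0.0548, just outside 5% FDR. Slc6a12 has 1 probe set, and 4 alternatives called it, with adjusted p from 0.0261 (probe sets of each gene averaged) to 0.0376 (robust variance prior). Under the other 7 it was not called, and centred on the control transcripts its change was 0.02.

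Slc6a13 encodes GAT2, a carrier of GABA and taurine, and is the direct neighbour of Slc6a12 among protein-coding genes. It read 10.69 and 10.66 in WT and 10.65 and 10.57 in KO, a change of -0.07 (95% CI -0.24 to 0.11, limma adjusted p = 0.804). The confidence intervals of these adjacent genes did not overlap, and their difference was not tested. Slc6a6, the taurine carrier, also on chromosome 6, read 9.86 and 9.77 in KO against a WT mean of 10.02 ± 0.04, without overlap (change -0.21, 95% CI -0.39 to -0.03, adjusted p = 0.312). Its other probe sets gave -0.01 (adjusted p = 0.974) and -0.18 (adjusted p = 0.43), and centring on the control transcripts gave -0.57 (adjusted p = 0.000296).

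Slc6a8, the creatine carrier on the X chromosome, read 7.18 and 6.99 in WT and 7.32 and 7.46 in KO. The genotypes did not overlap, with a change of 0.31 (SE 0.09, 95% CI 0.10 to 0.52, limma adjusted p = 0.196) that turned to -0.06 when arrays were centred on the control transcripts. Its other probe set gave -0.03 (adjusted p = 0.943), with the lowest and the highest of its values both in KO (7.04 and 7.34). Slc6a11, a GABA carrier of the nervous system, was at the silent level with a change of -0.13.

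**Figure D2:**
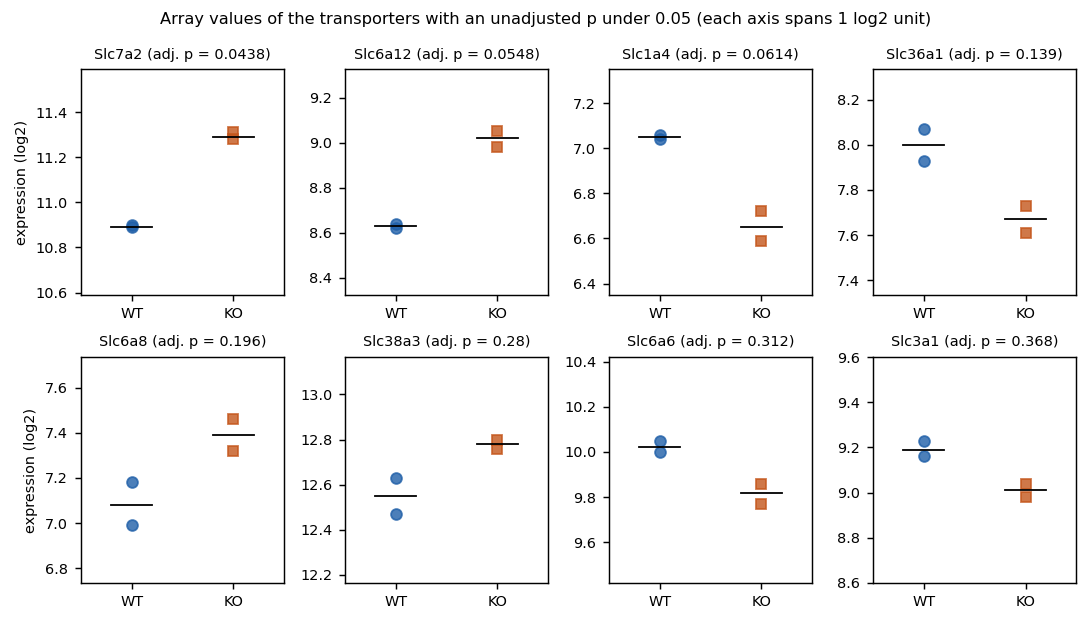
Expression (log2) on each array for the 8 transporters with an unadjusted p under 0.05, WT as circles and Tm7sf2-KO as squares, with lines at the means and axes that each span 1 log2 unit. Slc7a2, Slc6a12, Slc6a8 and Slc38a3 read higher in KO relative to the bulk of genes, Slc6a8 and Slc38a3 reversing when centred on the control transcripts, and Slc1a4, Slc36a1, Slc6a6 and Slc3a1 read lower. Slc7a2 alone passed 5% FDR (adjusted p = 0.0438).

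Among the neutral amino acid exchangers, Slc1a4 (chromosome 11) had the most negative change of the 57 transporters. It encodes ASCT1, which exchanges alanine, serine, cysteine and threonine. The arrays read 7.04 and 7.06 in WT and 6.72 and 6.59 in KO, both KO arrays being below both WT arrays. The means were 7.05 ± 0.01 and 6.65 ± 0.10 (SD, n = 2 each), a change of -0.40 (SE 0.08, 95% CI -0.58 to -0.21, limma adjusted p = 0.0614). The KO mean lay under the silent level of 6.74, so the signal was weak. Its other probe sets gave -0.18 (adjusted p = 0.481) and -0.08 (adjusted p = 0.757), in the same direction and not called. Leaving out dim probe sets (adjusted p = 0.034), a robust variance prior (0.0412) and a repeated quantile normalization (0.0496) put Slc1a4 past 5% FDR. Centred on the control transcripts it was -0.76 (adjusted p = 5.54e-05), and the mean of its probe sets gave -0.22 (adjusted p = 0.188). Slc1a5, which encodes the glutamine exchanger ASCT2, was at the silent level with a change of -0.03.

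The lysosomal carriers and their SLC36 relatives held 1 gene with an unadjusted p under 0.05. Slc36a1 (chromosome 11) encodes PAT1, which moves small neutral amino acids together with protons out of lysosomes. It read 7.93 and 8.07 in WT and 7.73 and 7.61 in KO, without overlap. The change was -0.33 (SE 0.09, 95% CI -0.53 to -0.13, limma adjusted p = 0.139), which did not pass 5% FDR, and it was -0.69 (adjusted p = 0.000109) when centred on the control transcripts. Slc36a2 and Slc36a3, which lie beside Slc36a1 with no other protein-coding gene between them, each gave 0.05, and Slc36a2 was at the silent level. Slc36a4 gave -0.18 (adjusted p = 0.456), and Slc38a7, a lysosomal glutamine exporter, gave -0.03 (adjusted p = 0.922). Slc38a9, which reports lysosomal arginine to mTORC1, gave -0.10 (adjusted p = 0.743). The weaker Slc38a9 probe sets gave -0.02 (adjusted p = 0.954), 0.16 (adjusted p = 0.499) and 0.17 (adjusted p = 0.414), so its direction was not settled.

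System N and system A, the sodium-coupled routes of glutamine and alanine, showed no call. Slc38a3 (chromosome 9) encodes SNAT3, through which hepatocytes take up or release glutamine, and had the strongest signal of the transporters. It read 12.47 and 12.63 in WT and 12.76 and 12.80 in KO, with the KO arrays above the WT arrays. The change was 0.23 (SE 0.09, 95% CI 0.04 to 0.43, limma adjusted p = 0.28), and it turned to -0.13 when centred on the control transcripts. The other Slc38a3 probe set gave 0.19 (adjusted p = 0.401). Slc38a5, the other system N carrier, was at the silent level with a change of -0.06.

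Slc38a4, an imprinted system A gene of hepatocytes that encodes SNAT4, was the most even of the strong signals. It read 12.22 and 12.24 in WT and 12.22 and 12.25 in KO, a change of 0.00 (95% CI -0.17 to 0.17, limma adjusted p = 1). The second probe set gave 0.08 (adjusted p = 0.75). Slc38a2, which encodes SNAT2, a carrier known to be induced when amino acids are short, spread more within genotypes than between them, at 10.37 and 10.63 in WT and 10.72 and 10.43 in KO (change 0.08, 95% CI -0.19 to 0.34, adjusted p = 0.854). Slc38a1 gave -0.07 (adjusted p = 0.83). Slc38a1, Slc38a2 and Slc38a4 are adjacent protein-coding genes on chromosome 15, and the interval of each included 0.

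Outside these systems, Slc38a10, whose function in liver is not settled, read 10.12 and 10.12 in WT and 10.14 and 10.03 in KO (change -0.04, 95% CI -0.22 to 0.14, limma adjusted p = 0.905). Its 4 other probe sets lay on both sides of 0, from -0.10 to 0.15. Slc38a6 gave 0.16 (adjusted p = 0.502).

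**Figure D3:**
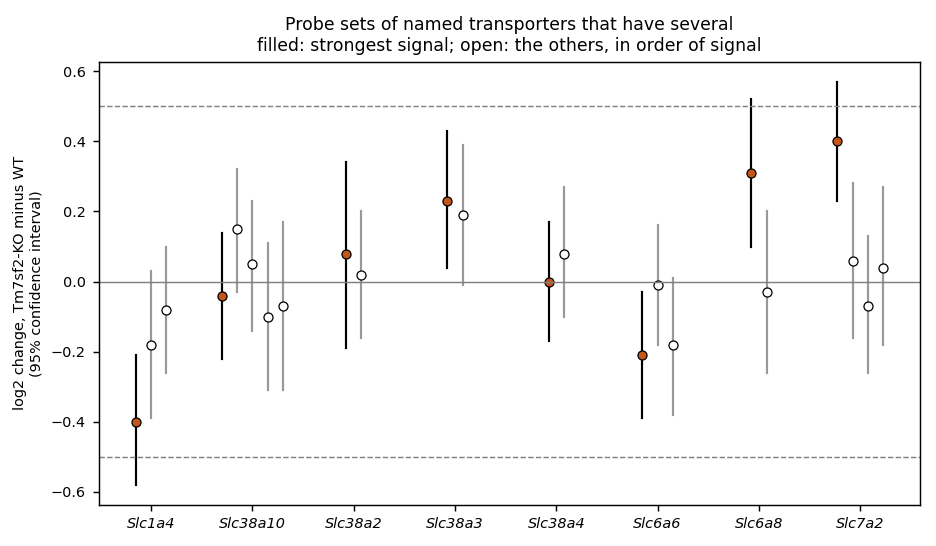
Change (KO minus WT, log2, relative to the bulk of genes) with its 95% confidence interval at every probe set of the named transporters that have several. Filled points are the probe set with the strongest signal and open points the others in order of signal, with dashed lines at 0.5 to either side of 0. Slc7a2 stands at 0.40 on its strongest probe set and at 0.06, -0.07 and 0.04 on the others, while both probe sets of Slc38a3 read higher (0.23 and 0.19), though neither does when centred on the control transcripts.

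The 2 heavy subunits, which bring light subunits to the membrane, both had clear signal. Slc3a1 (chromosome 17) encodes rBAT, the partner in cystine and cationic amino acid uptake that is best known from kidney. It read 9.23 and 9.16 in WT and 8.98 and 9.04 in KO, without overlap, a change of -0.19 (95% CI -0.36 to -0.01, limma adjusted p = 0.368). Slc3a2 (chromosome 19), which encodes CD98, read 9.08 and 9.09 in WT and 9.19 and 9.07 in KO (change 0.05, 95% CI -0.14 to 0.23, adjusted p = 0.875). Neither passed 5% FDR. Centred on the control transcripts Slc3a1 was -0.55 (adjusted p = 0.000369) and Slc3a2 was -0.32 (adjusted p = 0.005).

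Of 10 light subunits, 8 were at the silent level and none reached an unadjusted p under 0.05 in limma, with changes from -0.20 to 0.07. They include Slc7a11, the cystine and glutamate exchanger (0.04), and Slc7a9, the partner of Slc3a1 in kidney (-0.05). The lowest was Slc7a8, a carrier of neutral amino acids, at 6.80 and 6.69 in WT and 6.64 and 6.45 in KO (change -0.20, adjusted p = 0.396). Above the silent level stood Slc7a5, which encodes the large neutral amino acid carrier LAT1 (-0.04, adjusted p = 0.883), and Slc7a7, a carrier of cationic and neutral amino acids (-0.08, adjusted p = 0.771). A weaker probe set of Slc7a7 read 7.13 and 6.90 in WT and 6.71 and 6.66 in KO (change -0.33, limma adjusted p = 0.156), and it was named after its values were seen.

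The 3 SLC43 genes, among them the carriers of large neutral amino acids Slc43a1 and Slc43a2, gave 0.06, 0.08 and 0.09. Slc43a3, a purine nucleobase carrier grouped with them by sequence, had the strongest signal of the family, at 7.69 and 7.80 in WT and 7.90 and 7.78 in KO (change 0.09, 95% CI -0.10 to 0.29, limma adjusted p = 0.716). Its genotypes overlapped.

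The remaining members are best known from nerve, kidney and gut. Of 4 carriers of glutamate and aspartate, 3 were at the silent level, and all 4 gave changes between 0.06 and 0.10. Of 9 further SLC6 carriers of amino acids, 5 were at the silent level, and the changes ran from -0.16 to 0.13. Among these, Slc6a9, the glycine carrier GlyT1, had the strongest signal, at 8.67 and 8.65 in WT and 8.73 and 8.76 in KO (change 0.08, adjusted p = 0.727). Slc6a19, the carrier of neutral amino acids in kidney and gut, gave -0.14 at the silent level, and its neighbour Slc6a18 gave 0.12. The 3 monoamine carriers Slc6a2, Slc6a3 and Slc6a4 gave 0.00 to 0.08. None of the genes in these 3 groups reached an unadjusted p under 0.05 in limma.

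**Figure D4:**
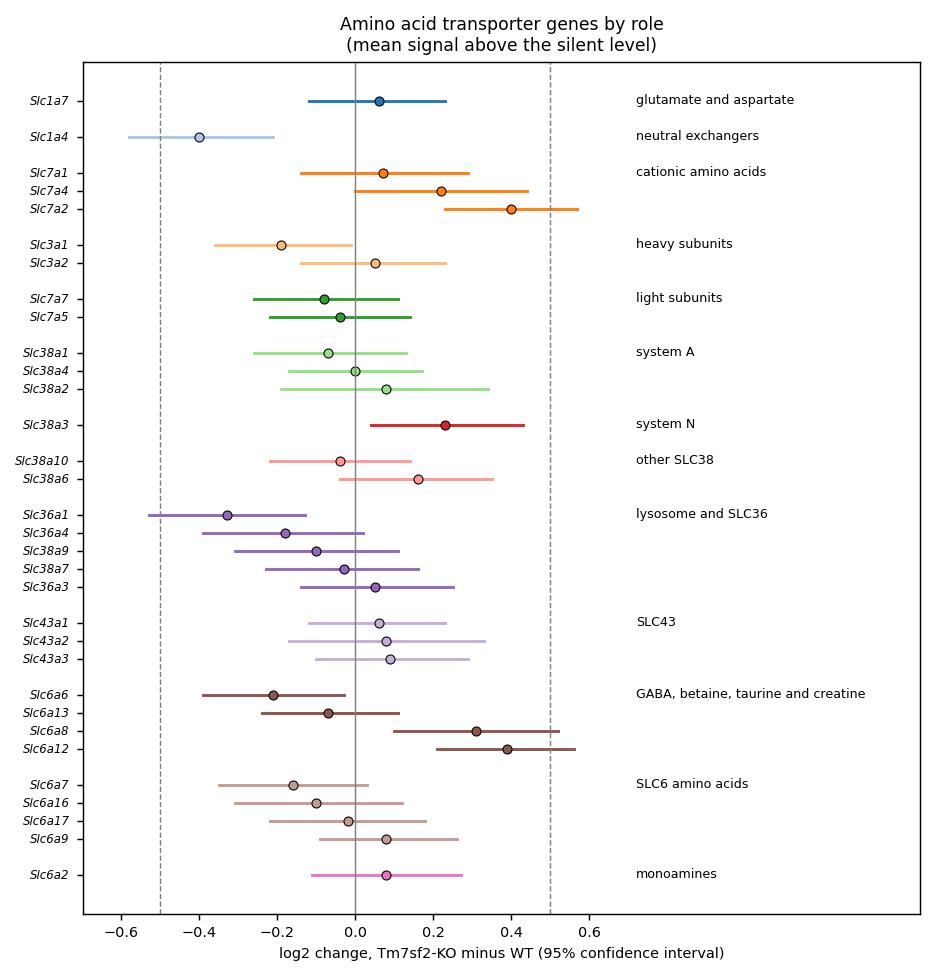
Change (KO minus WT, log2, relative to the bulk of genes) with its 95% confidence interval for the 32 transporters above the silent level of 6.74, grouped by role. Dashed lines mark 0.5 to either side of 0. The intervals of 27 transporters stay between the dashed lines, and those of Slc7a2, Slc6a12, Slc1a4, Slc36a1 and Slc6a8 cross 1 of them.

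Neighbouring transporter genes did not share a direction throughout. All 57 were placed with RefSeq genes (assembly GRCm38.p6), and 7 pairs were adjacent among protein-coding genes. Slc36a2 and Slc36a1 gave 0.05 and -0.33, Slc6a13 and Slc6a12 gave -0.07 and 0.39, and Slc6a18 and Slc6a19 gave 0.12 and -0.14. Slc36a3 and Slc36a2 both gave 0.05. The intervals of Slc36a2, Slc6a13, Slc6a18 and Slc6a19 included 0, so their signs are uncertain. Differences within pairs were not tested.

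Taking in every probe set of the 57 genes gave no further call. Of 102 probe sets 1 passed 5% FDR and 9 reached an unadjusted p under 0.05, which is 8.82%, where the share of all probe sets was 13%. They were 4 higher and 5 lower in KO. In 27 genes there was more than 1 probe set, with up to 5 per gene.

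The glutamate carrier Slc1a2, which marks pericentral hepatocytes in liver and stands outside the 57 genes, read 8.70 and 8.72 in WT and 9.47 and 9.50 in KO (change 0.78, SE 0.08, limma adjusted p = 0.00194). The weaker probe sets gave 0.41 (adjusted p = 0.0631) and 0.18 (adjusted p = 0.381). With Slc1a2 counted, 1 transporter of 58 passed both thresholds and 2 passed 5% FDR, so the count of 0 past both depends on leaving it out.

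Other genes that carry, partner or sense amino acids gave no call past both thresholds among 55 measured. Of 11 peptide, vesicular and lysosomal carriers, 1 (9.09%) passed 5% FDR in limma, where 1.75% of all genes did. It was the peptide transporter Slc15a2, at 6.87 and 6.98 in WT and 7.33 and 7.42 in KO (change 0.45, SE 0.08, 95% CI 0.26 to 0.64, adjusted p = 0.0379). Its other probe sets gave 0.07 (adjusted p = 0.809) and 0.05 (adjusted p = 0.865). The mean of its probe sets gave 0.19 (adjusted p = 0.188), and centring on the control transcripts gave 0.09 (adjusted p = 0.357). Slc15a2 stayed past 5% FDR without dim probe sets (limma adjusted p = 0.0206) and with a robust variance prior (0.0224). The same held after a repeated quantile normalization (0.0299) and with a variance trend (0.0372). The median change of the 11 genes was -0.01.

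Of 10 partners and regulators of the carriers, 1 (10%) passed 5% FDR in limma at its strongest probe set, beside 1.75% of all genes. Sgk1, a kinase that responds to glucocorticoids and insulin and acts on the ubiquitin ligase Nedd4l, read 9.27 and 9.39 in WT and 8.87 and 8.95 in KO, without overlap (change -0.42, SE 0.08, 95% CI -0.60 to -0.23, adjusted p = 0.0493). Nedd4l itself gave -0.15 (adjusted p = 0.474), and the median of the 10 genes was -0.07. A weaker probe set of Slc9a3r1, also in this list, passed 5% FDR too and was named after its values were seen. It read 10.53 and 10.55 in WT and 9.99 and 10.15 in KO (change -0.47, limma adjusted p = 0.0358). The stronger probe sets of Slc9a3r1 gave -0.02 (adjusted p = 0.945) and -0.04 (adjusted p = 0.903). Centred on the control transcripts Sgk1 was -0.78 (adjusted p = 4.3e-05). With 1 array left out the changes were 0.40 to 0.51 for Slc15a2 and -0.48 to -0.36 for Sgk1.

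The last list covers amino acid sensing, chiefly by mTORC1, the kinase complex that reads amino acid supply at the lysosome. It also holds Eif2ak4 and Gcn1l1 (changes 0.12 and -0.07), which act outside mTORC1. Of the 34 genes in this list, 0 passed 5% FDR in limma. An unadjusted p under 0.05 was reached by 7, or 20.6%, all of them higher in KO relative to the bulk of genes. The median change of the 34 genes was 0.03, and 15.2% of all genes and 21% of those above the silent level reached such a p. The smallest p belonged to Rragd, a small GTPase that brings mTORC1 to lysosomes, at 6.58 and 6.33 in WT against a KO mean of 6.90 ± 0.14 (SD, n = 2 each). The arrays did not overlap (change 0.45, SE 0.11, adjusted p = 0.0884). Its mean of 6.68 lay under the silent level, and its other probe sets gave 0.08 and -0.01. Centred on the control transcripts Rragd was 0.09 (limma adjusted p = 0.433). The others, named after their values were seen, were Tsc1 (0.36), Fnip2 (0.29), Lamtor2 (0.26), Fnip1 (0.25), Sesn1 (0.25) and Sesn3 (0.22). Tsc1 had the same limma adjusted p as Rragd (0.0884), with a mean of 7.73, above the silent level. Weaker probe sets gave -0.06 and 0.02 for Tsc1, 0.27 and 0.24 for Sesn1 and 0.20 for Fnip1.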

How the data were processed

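Liver RNA of 2 WT and 2 Tm7sf2-KO samples was hybridised to Affymetrix MOE430 v2 arrays with 1 colour. The authors deposited log2 values, 1 per probe set and array, normalized by quantiles per the study's methods. As tools, the processing notes of the submitters list affy and limma with no version. Background correction, probe summarisation and genome build were not given in the sources used here. A table of the authors' own comparison, with a log2 ratio of KO over WT and adjusted p-values, was deposited too. Only its gene names, gene identifiers and chromosomes were used. The lowest value was 5.71 and the highest 14.76. Precision is limited by the number of arrays, since no counts exist.

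Of 45101 probe sets, 64 Affymetrix controls were left out and 45037 tested with lmFit and eBayes of limma 3.58.1 (R 4.3.3, two-sided, no covariate, 2 residual and 7.3 prior degrees of freedom), adjusted by Benjamini-Hochberg over all of them. The thresholds are those of the study's methods. The fit was tested on simulated data. No filter on signal was used for tests.

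Named were Tm7sf2, transporters past 5% FDR or with a change of at least 0.25 in size, the 10 with the strongest signal, the strongest of each family, and in each other list genes past both thresholds or the smallest p, which gave 14 transporters and 3 others. Transporters beyond this were named for their role, and a few genes are not reported here by name. Members and lists were chosen with earlier results of these data known. Alternatives left out dim probe sets, changed the variance prior, normalized again, centred on control transcripts, averaged probe sets, blocked on the replicate number or left out an array. A promoter motif count, meant for members that move together, was not run.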

Additional observations from a re-analysis of the deposited data

How the results depend on the processing

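In limma 0 transporters passed both thresholds in either direction under every alternative tried except 2. Centring on the added control transcripts moved the transporter median to -0.35 and that of all genes to -0.36, with 9 transporters lower past both thresholds, 52 past 5% FDR alone, 6 of the other transport and sensing genes past both thresholds, and 5539 of all probe sets in place of 318. Counting Slc1a2, chosen after seeing the data, gave 1 higher past both thresholds and 2 past 5% FDR. The count past 5% FDR alone, 1 as reported, was 3 without dim probe sets, 2 with a variance trend, 3 with a robust prior and 0 with the replicate block. Slc7a2 had adjusted p = 0.0779 with the block, Slc15a2 0.0542 and Sgk1 0.0693, and all probe sets past both thresholds numbered 305. Deviations of same-numbered arrays correlated at -0.0368 across probe sets. With 2 arrays per genotype this cannot settle whether the numbers pair the samples.

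Some named changes reversed in sign. After a repeated quantile normalization Slc38a4 was -0.02. Its reported change rounds to 0.00, so its sign was not settled to begin with. Centred on control transcripts, Slc38a2 was -0.29, Slc38a3 -0.13, Slc38a4 -0.36, Slc3a2 -0.32, Slc43a3 -0.27 and Slc6a8 -0.06. With 1 array left out Slc38a2 ran from -0.07 to 0.22, Slc38a4 from -0.01 to 0.01, Slc3a2 from -0.01 to 0.11 and Slc38a10 from -0.09 to 0.02. Over 18 named genes and 11 alternatives, 147 of 197 values kept their direction and their side of the 5% FDR threshold. With direction kept, 13 newly passed it and 24 no longer did. A further 13 reversed, whatever their side of it. Centred on the control transcripts, the reversed Slc38a2, Slc38a4, Slc3a2 and Slc43a3 also newly passed 5% FDR (limma adjusted p from 0.00217 to 0.0205). Rragd has no value without dim probe sets, since it is one of them.

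With any array left out 0 transporters passed 5% FDR in limma and 0 of all probe sets passed both thresholds, and even Tm7sf2 (-2.79 to -2.70) had adjusted p = 0.518 to 0.662. An unadjusted p under 0.05 was then reached by 5 to 10 transporters. Calls lost there therefore say nothing about single genes. The lone array left in a genotype is assumed to vary like the other genotype.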
